A study of Homo sapiens with 3 samples.

Results

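Solute carrier genes encode membrane proteins that move ions, nutrients and metabolites across cell and organelle membranes. They were taken here as every annotated symbol made of SLC, a number, A and a number, or beginning with SLCO, with pseudogenes left out. Of 8661 named genes on the arrays, 132 met this rule: 21 sodium-coupled carriers, 27 mitochondrial carriers of the SLC25 family and 84 others. The cells were LNCaP, a human cell line of metastatic prostate cancer. All were kept in RPMI-1640 with 10% fetal bovine serum and treated for 24 h with ethanol as the vehicle, with 10 nM bufalin or with 20 nM bufalin, with 1 Illumina bead array per treatment. No p-value or standard error can be given, and every difference below compares single arrays.

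Bufalin, a cardiac steroid made by toads, inhibits Na,K-ATPase, the sodium pump. The pump keeps sodium low inside the cell, and sodium-coupled carriers use that gradient to bring in amino acids, phosphate, vitamins, inositol and bicarbonate, or to export protons and calcium. Carriers of the SLC25 family sit almost all in the inner mitochondrial membrane and draw on other gradients there, while most remaining families run on protons, exchange or simple facilitation. The sodium-coupled, SLC25 and other carriers were therefore set side by side.

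The signals below are the deposited, unnormalized intensities, and folds come from background-corrected and normalized values, so they can exceed the ratio of the signals. A gene entered a comparison of 2 arrays when the detection p-value of its probe was below 0.01 on either array, and counts of genes past 2-fold use the normalized values also where only 1 of the arrays detected the gene. The arrays detected 14612 to 14735 probes each, and the median signal over all probes, mostly background, was 120 to 122. Named genes had already passed a filter by the submitters for detection (p-value below 0.05) on 2 or more arrays and a signal at least 10% away from vehicle. Carriers that were dim or differed little are therefore mostly absent from these counts. Of 11 luminal prostate markers 10 were named, and all 10 were detected on the vehicle array. Basal markers had 0 of 3 genes named here. Stromal markers had 3 of 4 named and detected, with signals over the arrays from 421 to 513 for VIM, 1257 to 2047 for ACTA2 and 153 to 226 for TAGLN, and their part in the carrier results was not tested. Of the leukocyte markers CD68 was detected on every array and CD14 at 20 nM only, with a signal of 214.

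The named carriers were found across most of the measured range. Of the 132, 110 were detected on all 3 arrays, 18 on 1 or 2, and 4 on none: SLC24A1, SLC25A45, SLC2A11 and SLC30A4. The filter had already required detection on 2 or more arrays, so high detection was largely set by that selection. On both the vehicle and the 10 nM array, 116 of the 132 carriers were detected, beside 7523 of 8661 named genes. The median signal of the 132 carriers on the vehicle array was 346, beside 319 for all named genes. Of the carriers, 34 read below 200 there, close to background. The brightest, the mitochondrial phosphate carrier gene SLC25A3, reached 32.2% of the highest signal on the vehicle array, so none lay at the top of the range.

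At 10 nM, 12 of 125 detected carriers were at least 2-fold higher than vehicle, a log2 fold change of 1, and 5 were at least 2-fold lower. Over all 8233 detected named genes, 6.46% were at least 2-fold higher and 3.27% at least 2-fold lower. The higher carriers were 5 of 19 sodium-coupled genes (26.3%), 1 of 25 SLC25 genes and 6 of 81 others. Of the 5, SLC5A3 and SLC6A12 were not detected on the vehicle array and entered only through the 10 nM array. That left SLC38A2, SLC20A2 and SLC5A6 among the 15 sodium-coupled genes that both arrays detected. The lower ones were 0 sodium-coupled genes, 1 SLC25 gene and 4 others. Median log2 fold changes were 0.39 for sodium-coupled, 0.03 for SLC25 and -0.08 for other carriers, with -0.04 over all detected named genes. Higher calls outweighed lower ones more without background correction, at 7 against 1 carriers and 194 against 45 named genes, compared with 12 against 5 and 532 against 269 in the main setting. In the deposited intensities as they are these were 7 against 0 and 208 against 33, and with an offset of 50 the named genes stood at 319 against 97.

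At 20 nM, 15 of 127 detected carriers were at least 2-fold higher and 20 at least 2-fold lower, where the shares over 8346 named genes were 14.7% and 16.6%. By class, 5 of 20 sodium-coupled genes (25%), 1 of 26 SLC25 genes and 9 of 81 others were higher. SLC5A3 and SLC6A12 are in the 5 and entered only through the 20 nM array. Of the 15 sodium-coupled genes that both arrays detected, 3 were higher. On the other side stood 2 sodium-coupled genes, 4 SLC25 genes and 14 others. Medians were 0.55, -0.15 and -0.31 in that order, and -0.10 over all detected named genes. The medians depended on genes detected on 1 array: over those detected on both, the sodium-coupled median was 0.22 at 20 nM (15 genes), and the SLC25 median was -0.34 at 20 nM and -0.25 at 10 nM, where it changed sign (23 genes). Without background correction the sodium-coupled median was 0.19 at 20 nM and 0.20 at 10 nM. In that setting 3 sodium-coupled genes, not 5, were at least 2-fold higher at each dose. Of all named genes, 194 of 8233 were then higher at 10 nM. At 20 nM 552 of 8346 were higher and 545 lower.

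**Figure D1:**
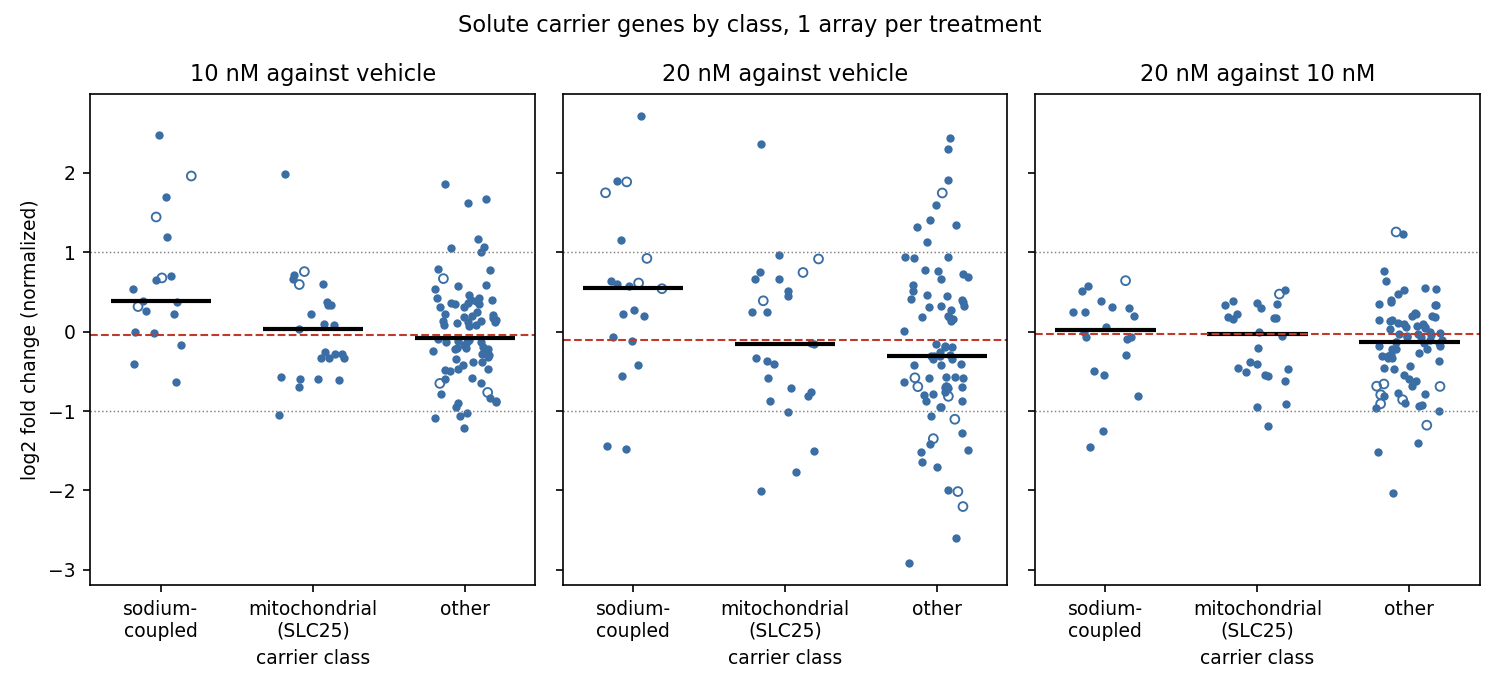
Log2 fold change of each detected carrier gene (vertical axis) by class (horizontal axis) in the 3 comparisons; filled points were detected on both arrays, hollow points on 1, black bars are class medians, the dashed line is the median of all detected named genes and dotted lines mark 2-fold. At 20 nM the sodium-coupled median lies at 0.55, with 5 genes above the upper dotted line and 2 below the lower, while the medians of the SLC25 and other carriers lie at -0.15 and -0.31. Of those 5, SLC5A3 and SLC6A12 are hollow.

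Among sodium-coupled carriers, the amino acid carrier gene SLC38A2 stood farthest above vehicle at both doses. It encodes SNAT2, which brings neutral amino acids such as glutamine and alanine into the cell and is induced by hypertonic stress and amino acid shortage. Its signal (probe ILMN_1651799) was 1229 with vehicle, 6444 with 10 nM and 8091 with 20 nM. The normalized level was 5.54-fold above vehicle at the lower dose and 6.56-fold above it at the upper, and between the doses it differed by 1.19-fold. Most of the difference from vehicle was thus already there at the lower dose. SLC38A1, which encodes the related carrier SNAT1, read 648, 968 and 1345 in the same order, and was 1.56-fold and 2.22-fold higher.

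The inositol carrier gene SLC5A3 and the betaine carrier gene SLC6A12 were not detected in vehicle-treated cells and were detected at both doses. Their products, SMIT1 and BGT1, take up organic osmolytes, and both genes are known targets of the osmotic stress transcription factor NFAT5, as is SLC38A2. SLC5A3 read 127 with vehicle, 183 with 10 nM and 197 with 20 nM, and was at least 2.02-fold and at least 2.49-fold higher. SLC6A12 read 113, 187 and 178, and was at least 2.11-fold and at least 2.01-fold higher. "At least" means that the undetected level was replaced by the dimmest normalized value that still counted as detected on the same array, or by the probe's own value where that was higher. The list of NFAT5 target carriers held 4 genes, of which 3 were named and SLC6A6 was not. SLC5A3 and SLC6A12 entered only through the bufalin arrays, and with them at their bounds the medians of the 3 were 1.08 and 1.32, both lower limits. NFAT5 itself read 193, 390 and 668, and was 3.04-fold and 6.12-fold higher. Without background correction SLC5A3 stood at 0.50 and 0.65 and SLC6A12 at 0.70 and 0.66 on the log2 scale, all below 2-fold.

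The 250 bases before annotated starts are shown for SLC38A2, which leads the sodium-coupled group, and for SLC5A3, a known NFAT5 target. Those before SLC25A25 are shown because it leads the mitochondrial group described further on. SLC6A12 and SLC20A2 stood farther above vehicle than SLC5A3 by normalized value at both doses. SLC6A12 had no promoter window, and SLC20A2 was not searched. Sequences are from RefSeq, build GRCh38.p14, written from 5′ to 3′ on the strand of the gene. The windows lie at chr12:46372774-46373023 on the minus strand, chr21:34073328-34073577 on the plus strand and chr9:128098257-128098506 on the plus strand, the last being 1 of 3 annotated starts of SLC25A25, chosen after the search because it holds a match and the other windows of the gene hold none. Searched on both strands were TGGAAA, the core of NFAT5 and NFAT sites, TGACGTCA, the cAMP response element, and TGANTCA, the AP-1 site, which do not overlap in these windows. Capitals mark every match.
SLC38A2: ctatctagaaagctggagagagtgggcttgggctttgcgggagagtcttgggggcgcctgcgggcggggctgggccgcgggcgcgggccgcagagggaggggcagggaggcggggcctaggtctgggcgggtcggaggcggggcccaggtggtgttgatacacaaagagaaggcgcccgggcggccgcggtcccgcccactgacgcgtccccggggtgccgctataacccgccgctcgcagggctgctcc
SLC5A3: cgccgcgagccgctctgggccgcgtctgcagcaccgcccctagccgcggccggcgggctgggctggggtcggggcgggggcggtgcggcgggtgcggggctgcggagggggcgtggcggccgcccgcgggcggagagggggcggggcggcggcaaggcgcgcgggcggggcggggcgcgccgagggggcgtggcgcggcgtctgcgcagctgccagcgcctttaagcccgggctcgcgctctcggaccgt
SLC25A25: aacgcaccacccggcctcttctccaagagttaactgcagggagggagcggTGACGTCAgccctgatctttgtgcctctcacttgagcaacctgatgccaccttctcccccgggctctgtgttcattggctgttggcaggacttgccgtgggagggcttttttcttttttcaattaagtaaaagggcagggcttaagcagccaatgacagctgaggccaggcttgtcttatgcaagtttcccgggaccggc
The single match in the windows shown was TGACGTCA before SLC25A25, a motif found in 1.65% of 35116 promoter windows. TGGAAA occurs in 6325 of those windows and TGANTCA in 6.57%, and neither was found in the 3 shown. SLC3A2 was also searched, and 1 of its 3 windows, not shown, holds a TGANTCA match. Of the 132 carriers, 115 had a promoter window in the table.

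Phosphate and vitamin carriers of the sodium-coupled class differed from each other. SLC20A2, which encodes the phosphate carrier PiT-2, read 197, 421 and 453 on the vehicle, 10 nM and 20 nM arrays, and was 3.25-fold and 3.70-fold higher. Its relative SLC20A1 (PiT-1) read 821, 765 and 965, and stayed within 1.17-fold of vehicle at each dose. SLC5A6, the gene of a carrier for biotin and pantothenate, peaked at the lower dose: its signal was 709, 1518 and 1077, and it was 2.28-fold and then 1.56-fold higher.

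The sodium-coupled genes farthest below vehicle were a pair of bicarbonate carriers, while SLC4A5 of the same family lay above it. SLC4A4, which encodes NBCe1, read 456 with vehicle, 335 with 10 nM and 227 with 20 nM, and was 1.55-fold and 2.72-fold lower. Its second probe stood at -0.49 at 10 nM and was not detected at 20 nM. SLC4A7, which encodes NBCn1, read 385, 387 and 197. It stood at -0.01 at 10 nM and was 2.77-fold lower at 20 nM, but its second, dimmer probe stood at -0.25 at 20 nM, so the size of this difference depends on the probe. SLC4A5, another bicarbonate carrier gene, had signals of 264, 266 and 334 and was 1.48-fold higher at 20 nM.

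The other sodium-coupled genes that all arrays detected stayed within 2-fold of vehicle at both doses. SLC12A2, which encodes the volume-regulating cotransporter NKCC1, read 207, 258 and 256, and was 1.45-fold and 1.51-fold higher. Its second probe gave log2 fold changes of 0.68 and 0.84. The glycine carrier gene SLC6A9 stood at 0.70 at 10 nM and -0.56 at 20 nM, on either side of vehicle. The glutamine carrier gene SLC1A5 did the same by less, at 0.39 and -0.11. The sodium-proton exchanger gene SLC9A2 stood at 0.22 and -0.07, the creatine carrier gene SLC6A8 at 0.26 and 0.19, and the lactate carrier gene SLC5A8 at 0.37 and 0.27. SLC6A8 has near-identical copies elsewhere in the genome, so the source of its signal is uncertain. The carnitine carrier gene SLC22A5 stood below vehicle at both doses, at -0.41 and -0.42. SLC5A12, SLC38A5 and SLC9A5 were not detected on the vehicle array and were at least 1.30-fold, 1.28-fold and 1.41-fold higher at 20 nM.

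**Figure D2:**
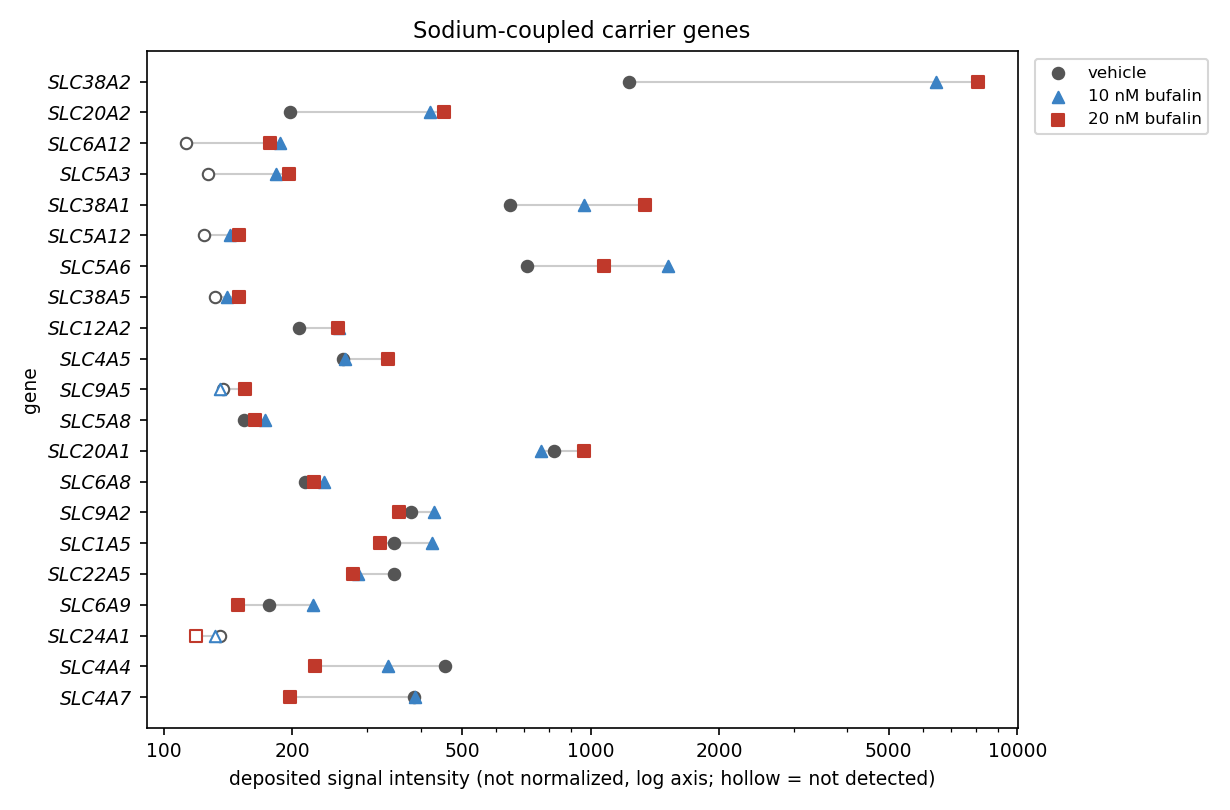
Deposited signal (horizontal log axis, arbitrary units) of the 21 sodium-coupled carrier genes (vertical axis) on the vehicle, 10 nM and 20 nM arrays, ordered by the 20 nM fold change; hollow symbols were not detected. SLC38A2 goes from 1229 on the vehicle array to 8091 at 20 nM, SLC6A12 and SLC5A3 are hollow for vehicle only, and SLC4A4 and SLC4A7 read lowest at 20 nM.

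In the mitochondrial family, 1 gene stood far above the rest. SLC25A25 encodes a calcium-regulated carrier that exchanges ATP-magnesium for phosphate, and its signal (probe ILMN_1791728) was 815 with vehicle, 3002 with 10 nM and 3997 with 20 nM. Against vehicle it was 3.94-fold higher at the lower dose and 5.12-fold higher at the upper. The second probe of the gene, undetected with vehicle, was at least 3.37-fold and at least 6.30-fold higher. Its relatives SLC25A24 and SLC25A23, also ATP-magnesium carrier genes, were also measured: SLC25A24, not detected on the vehicle array, was at least 1.23-fold higher at 10 nM and at least 1.38-fold higher at 20 nM, and SLC25A23 stood at 0.37 and -0.14.

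The SLC25 genes at least 2-fold below vehicle at 20 nM were carriers of acids and amino acids, with 1 whose substrate is less settled. The dicarboxylate carrier gene SLC25A10 read 1946, 1012 and 564, and was 2.08-fold lower at 10 nM and 4.03-fold lower at 20 nM. It is adjacent to MRPL12 and shares a read-through transcript with it, which the probe may also read. The glutamate carrier gene SLC25A22 read 689, 508 and 271, and was 1.48-fold and 3.39-fold lower. SLC25A16 read 314, 243 and 172, and was 1.51-fold and 2.83-fold lower. SLC25A15, the ornithine carrier gene of the urea cycle, read 740, 533 and 413 and was 1.52-fold and 2.02-fold lower, while its dimmer probe stood at -0.37 at 20 nM. All 4 were lower on the 20 nM array than on the 10 nM array.

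By the brightest probe of each, other SLC25 genes stayed within 2-fold of vehicle where both arrays detected them. Dimmer probes of SLC25A20, SLC25A29 and SLC25A3 passed 2-fold at 20 nM, at 1.17, 1.28 and -1.23. SLC25A3, which supplies phosphate for ATP synthesis, read 8256, 7073 and 5753 by its brightest probe, and stood at -0.33 and -0.71. Its next brightest probe stood at -0.02 at 20 nM. The oxoglutarate carrier gene SLC25A11 stood at -0.33 and -0.88, the citrate carrier gene SLC25A1 at 0.03 and -0.59, and the aspartate-glutamate carrier genes SLC25A12 and SLC25A13 at -0.70 and -0.60 at 10 nM and at -0.40 and -0.38 at 20 nM. Of the iron carriers, SLC25A28 (mitoferrin-2) stood at -0.29 and -0.76 and SLC25A37 (mitoferrin-1) at -0.33 and -0.16. Above vehicle at 20 nM were SLC25A44, a carrier gene for branched-chain amino acids, at 0.96, and the acylcarnitine carrier gene SLC25A20 at 0.74. The glutathione carrier gene SLC25A39 stood at 0.71 at 10 nM and 0.25 at 20 nM. SLC25A51, the mitochondrial NAD carrier gene, read 2928, 3180 and 3685 and stood at 0.25 at 20 nM, but a near-identical gene exists and the signals cannot be told apart. SLC25A11, SLC25A1, SLC25A12, SLC25A13, SLC25A44, SLC25A20, SLC25A29, SLC25A39, SLC25A51, SLC25A23 and SLC25A24 were chosen after their values were seen.

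**Figure D3:**
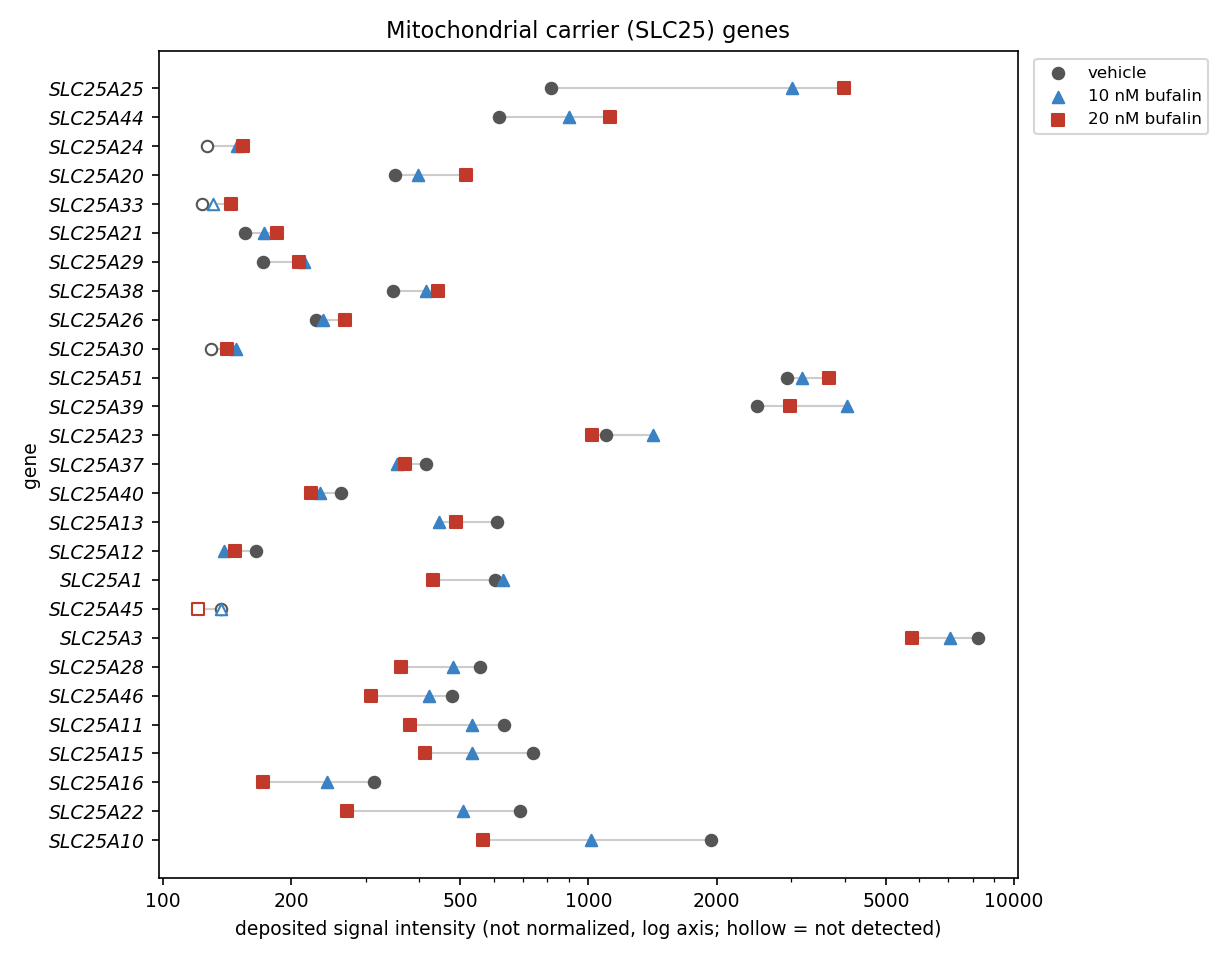
Deposited signal (horizontal log axis, arbitrary units) of the 27 SLC25 genes (vertical axis) on the vehicle, 10 nM and 20 nM arrays, ordered by the 20 nM fold change; hollow symbols were not detected. SLC25A25 stands apart at the top with 815 on the vehicle array and 3997 at 20 nM, and SLC25A10, SLC25A22, SLC25A16 and SLC25A15 at the bottom read lowest at 20 nM.

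Among the other carriers, those farthest above vehicle serve unrelated substrates. SLCO4A1, which encodes an organic anion carrier that takes up thyroid hormone, read 213 with vehicle, 466 with 10 nM and 707 with 20 nM, and stood 1.67 and 2.43 above vehicle on the log2 scale. SLC31A2, a copper carrier gene, read 208, 328 and 622 and was 2.09-fold and 4.91-fold higher. Its difference between the doses, 2.35-fold, was the highest on the upper side among carriers detected on both bufalin arrays. The high-affinity copper carrier gene SLC31A1 stood at 0.14 and 0.77. The glucose carrier gene SLC2A12 (GLUT12) read 278, 749 and 769, and was 3.61-fold and 3.74-fold higher, with no further difference at the higher dose beyond 1.04-fold. In contrast, SLC2A1, the gene of the common glucose carrier GLUT1, stood at 0.21 and 0.32.

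SLC3A2 and several amino acid carrier genes were also higher. SLC3A2 encodes the heavy chain shared by several amino acid exchangers and read 768, 2180 and 2152. Its log2 fold changes were 1.62 and 1.59, with 1.47 and 2.07 by its second probe. SLC7A6, a light chain that pairs with it, was just under 2-fold higher at the lower dose and 2.18-fold higher at the upper by the probe used, although the other stood at 0.36 and 0.48. SLC36A4, a lysosomal and membrane amino acid carrier gene, was 2.08-fold and 2.65-fold higher. The cystine carrier gene SLC7A9 was detected at 20 nM only and was at least 1.79-fold higher there. The thiamine carrier gene SLC19A2 read 162, 243 and 255, and was 2.24-fold and 2.54-fold higher. SLC71A1 was 1.72-fold and 2.48-fold higher, with log2 fold changes of 1.11 and 1.10 by its other probe.

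SLC7A5 and SLC7A11, light chains that pair with SLC3A2 to import leucine and cystine, were below vehicle, while SLC7A8, another light chain and chosen after its values were seen, stood at 0.59 and 0.44. SLC7A5 (LAT1) read 167, 138 and 137 and was detected on the vehicle array only, so that it was at least 1.68-fold lower at 10 nM and at least 1.65-fold lower at 20 nM. SLC7A11 (xCT) read 228, 182 and 197, and stood at -0.65 and -0.31. The cationic amino acid carrier gene SLC7A1 stood at 0.46 and 0.16. Of 9 carriers listed as targets of the amino acid stress factor ATF4, 7 were named, and 2 of them, SLC38A2 and SLC3A2, were at least 2-fold higher at each dose with 0 lower, where 6.46% of all named genes were higher at 10 nM and 14.7% at 20 nM. The median of those 7 was 0.46 at 10 nM and -0.11 at 20 nM.

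The carriers farthest below vehicle at 20 nM included genes of sugar phosphate, folate and fatty acid handling. SLC37A4, which moves glucose-6-phosphate into the endoplasmic reticulum, read 1893 with vehicle, 1103 with 10 nM and 336 with 20 nM. It was 1.84-fold lower at 10 nM and 7.53-fold lower at 20 nM, and the 4.10-fold difference between the doses was the highest in either direction among carriers. SLC33A2, formerly MFSD3, read 1896, 970 and 394, and was 2.13-fold and 6.07-fold lower. SLC10A7, an orphan of the bile acid carrier family, read 389, 238 and 168 and was 2.09-fold and 3.99-fold lower.

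Both named folate carriers stood below vehicle. The reduced folate carrier gene SLC19A1 read 301, 217 and 159, and was 1.72-fold and 3.26-fold lower. The proton-coupled folate carrier gene SLC46A1 read 219, 158 and 123, was 2.03-fold lower at 10 nM, and was not detected at 20 nM, where it was at least 2.88-fold lower. The neutral amino acid carrier gene SLC43A2 (LAT4) was 2.33-fold lower at 10 nM and, not detected at 20 nM, at least 3.48-fold lower there. SLC27A2, which activates very long chain fatty acids, stood at -0.58 and -1.48, and its relative SLC27A1 was 1.86-fold and 1.94-fold lower.

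SLC45A3, which encodes prostein, a marker of luminal prostate cells, read 1777, 1565 and 646. It was 1.18-fold lower at 10 nM and 3.13-fold lower at 20 nM, so that nearly all of the difference lay between the doses, 2.65-fold. Other luminal markers went either way: from vehicle to 20 nM the signal of TMPRSS2 went from 1492 to 5800 and that of FOLH1 from 915 to 1907, while SPDEF went from 1186 to 333 and STEAP2 from 1787 to 634. SLC43A1, also prostate-enriched, stood at 0.31 and 0.01. Further genes at least 2-fold lower at 20 nM were the zinc importer gene SLC39A3 (2.67-fold), the glucose carrier gene SLC2A6 (2.42-fold) and the cation-chloride family genes SLC12A9 (2.87-fold) and SLC12A8 (2.09-fold). The dimmer probes of SLC39A3 stood at -0.86 and -0.39. The sulphate carrier gene SLC26A2 and SLC16A9, a monocarboxylate family gene, were not detected at 20 nM and were at least 1.84-fold and at least 1.72-fold lower.

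**Figure D4:**
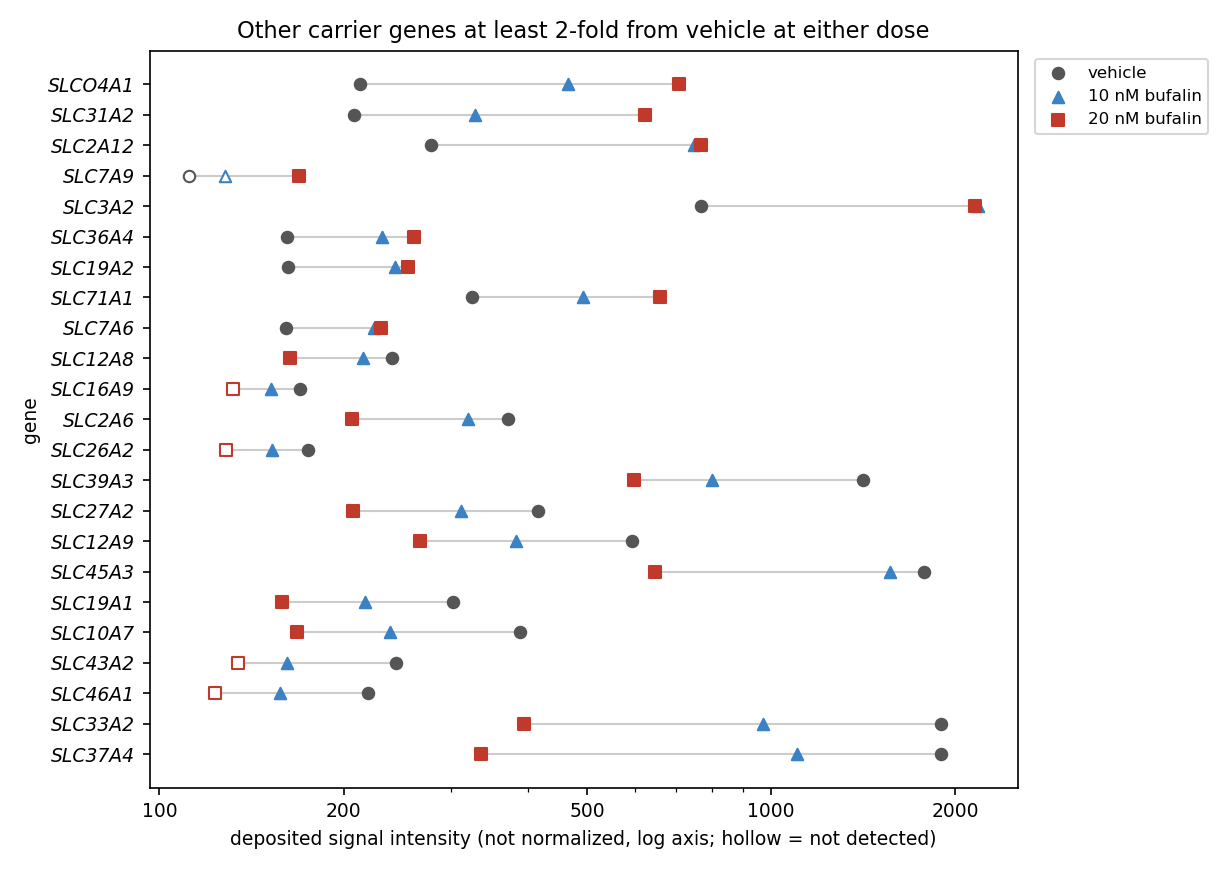
Deposited signal (horizontal log axis, arbitrary units) on the vehicle, 10 nM and 20 nM arrays of the 23 carriers outside the sodium-coupled and SLC25 classes (vertical axis) that were at least 2-fold from vehicle at either dose; hollow symbols were not detected. SLCO4A1 at the top goes from 213 to 707, and SLC37A4 at the bottom from 1893 to 336.

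Read by role at 20 nM, the list called pH and volume carriers had the lowest median. It takes whole families by symbol, so its name need not fit every gene in it, as with the sulphate carrier gene SLC26A2. In it 9 genes stood below vehicle and 3 above it: SLC12A2, SLC4A5 and SLC9A5. Of 12 detected genes of the SLC4, SLC9, SLC12 and SLC26 families, 5 were at least 2-fold lower and 0 higher, with a median of -0.81, where 16.6% of all named genes were lower and 14.7% higher. Without background correction 1 of the 5, SLC12A9, was still past 2-fold, and the median was -0.36. In that setting 545 of 8346 named genes were at least 2-fold lower and 552 higher. The 5 were SLC12A9, SLC4A7, SLC4A4, SLC26A2 and SLC12A8. SLC26A2 was not detected at 20 nM and was at least 1.84-fold lower, and with genes at their bounds 4 were past 2-fold. At 10 nM 0 of 11 passed 2-fold in either direction and the median was -0.10, where 6.46% of all named genes were higher and 3.27% lower. The exchanger gene SLC4A2, which swaps chloride for bicarbonate without sodium, stood at -0.21 and -0.75.

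Among the detected amino acid carriers, 14 stood above vehicle at 20 nM and 8 below it. Of 22, 7 were at least 2-fold higher at 20 nM, 1 was lower (SLC43A2) and the median was 0.29, beside 14.7% higher and 16.6% lower among all named genes. The 7 include SLC7A9 and SLC6A12, which were not detected with vehicle, and SLC7A6, whose other probe stood at 0.48. With 1-array genes at their bounds 6 were higher, and over genes detected on both arrays 5 of 16 were higher and 0 lower. Without background correction 3 were higher (SLC38A2, SLC38A1 and SLC3A2) and 0 lower, with a median of 0.16, beside 552 higher and 545 lower of 8346 named genes. At 10 nM 4 of 21 were higher, 1 was lower and the median was 0.36, beside 6.46% higher and 3.27% lower among all named genes. The 4 include SLC6A12, and over genes detected on both arrays 3 of 17 were higher and 1 lower. Without background correction 2 were higher and 0 lower at 10 nM, beside 194 and 45 of 8233 named genes. Of 11 zinc carriers, 0 were higher at 20 nM, 1 was lower and the median was 0.20. The zinc exporter gene SLC30A1, which responds to cell zinc, was 1.85-fold and 1.94-fold lower by the probe used. Its other probe stood at -0.72 and -0.48. The importer gene SLC39A7 of the secretory pathway was 1.31-fold and 1.91-fold higher. Nucleoside and vitamin carriers, 7 in all, split into 1 higher and 2 lower (median -0.59), and the nucleoside carrier gene SLC29A2 was 2.01-fold lower at 20 nM than at 10 nM. The 7 glucose and monocarboxylate carriers also split into 1 higher and 2 lower (median -0.58). Nucleotide sugar carriers had 0 of 5 past 2-fold, with SLC35A2, the UDP-galactose carrier gene, at 0.94. Those 5 are SLC35A genes only. The symbol rule left out other named SLC35 genes, such as SLC35B1, SLC35C1 and SLC35D2, so the count does not cover the whole family. These lists are small and overlap, and without replicates their medians have no test.

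**Figure D5:**
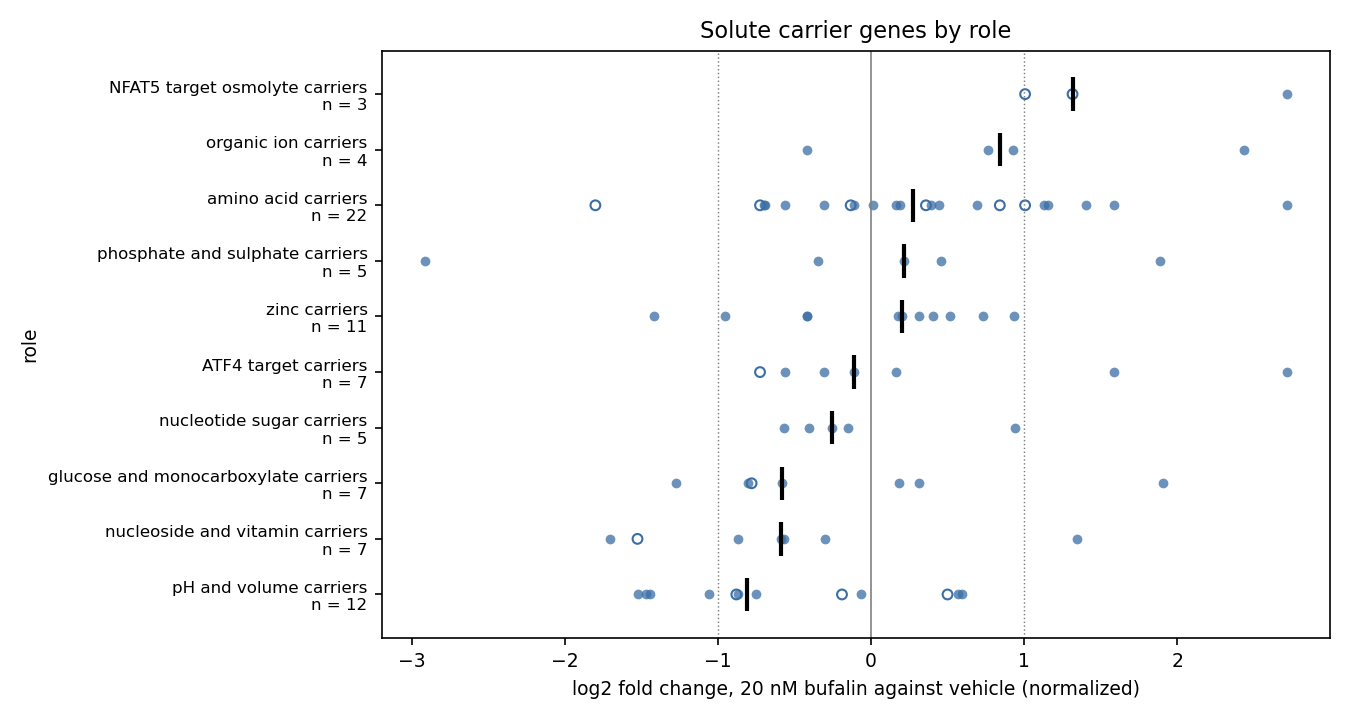
Log2 fold change at 20 nM against vehicle (horizontal axis) of each detected carrier gene in 10 role lists (vertical axis, n = detected genes), with black bars at the medians and dotted lines at 2-fold; filled points were detected on both arrays, and hollow points, detected on 1, are drawn at their bounds. Medians run from 1.32 for NFAT5 target osmolyte carriers, a lower limit, to -0.81 for pH and volume carriers, and a gene can appear in more than 1 list. The NFAT5 list holds 3 genes here, and SLC5A3 and SLC6A12 entered it only through the bufalin arrays. Its place at the top is therefore partly set by that selection.

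Between the doses few carriers differed by 2-fold. Of 126 detected carriers, 2 were at least 2-fold higher at 20 nM than at 10 nM and 8 at least 2-fold lower, where the shares over 8195 named genes were 2.73% and 4.86%. The higher ones were SLC31A2 and SLC7A9, the latter at least 1.81-fold at its bound. The 8 lower ones were SLC37A4 (4.10-fold), SLC33A2 (2.86-fold), SLC4A7 (2.75-fold), SLC45A3 (2.65-fold), SLC6A9 (2.39-fold), SLC25A22 (2.29-fold), SLC29A2 (2.01-fold) and SLC46A1, at least 1.42-fold at its bound. Class medians were 0.03 for sodium-coupled, -0.03 for SLC25 and -0.13 for other carriers, with -0.03 over all detected named genes. Under median scaling 2 carriers were higher and 13 lower, and the named genes moved from 224 higher and 398 lower to 169 and 514. At both doses 11 of 124 carriers were at least 2-fold above vehicle and 5 at least 2-fold below it, where the shares over 8148 named genes were 5.73% and 2.95%, and both comparisons share the vehicle array.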

How the data were processed

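RNA of 3 LNCaP cultures was isolated with columns and labelled with biotin, per the labels' protocols, and processed with BeadStudio 3.0, per the submitters' processing notes. Background subtraction by the authors is not given in these sources. The deposited table gives a linear signal intensity and a deposited detection p-value per array for 47323 probes, and the intensities are unnormalized per the file headers. A second deposited table holds 13753 of these probes, and all 41259 of its intensity values are exactly equal to the first. Detection (p-value below 0.05) on 2 or more arrays together with a signal at least 10% from vehicle at either dose gave 13752 of its probes and no others. Gene names were at hand for that table only: 10952 probes had 1 symbol, 2 had several and were not named, and 36371 of all probes stayed unnamed. Of the named probes, 10947 matched the RefSeq gene table by identifier. RefSeq lists 358 symbols under the carrier rule, of which 226 were not analysed here.

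Background correction used limma 3.58.1 in R 4.3.3 (normexp with its background estimated through detection p-values, offset 16), followed by quantile normalization of all probes and log2, which understates differences of dim genes. For each gene the named probe of highest mean signal over the 3 arrays was kept. The steps were tested on simulated data. Sodium-coupled carriers were listed from textbook knowledge, and a wider list adding carriers of unsettled coupling was an alternative. Groups came from the treatment labels, with 3 comparisons, no test and 2-fold as the size threshold. Alternatives changed background correction, offset, scaling, detection, probe choice, bounds, threshold and the sodium-coupled list. Named genes were all detected sodium-coupled carriers, SLC25 genes past 2-fold with a small panel, the 10 carriers of the other class farthest in each direction at 20 nM, 6 at 10 nM and 4 between doses, up to 4 per direction and dose detected on 1 array, and a panel of 26, of which 16 were named. Members and lists were chosen with earlier results of these data known. The pooled SD of log2 fold changes between probes of 1 gene was 0.31 at 10 nM, 0.44 at 20 nM and 0.31 between doses, over 1792 to 1858 genes, which describes probes and not cultures.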

Additional observations from a re-analysis of the deposited data

How the results depend on the processing

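No paired analysis was possible because the groups share only 1 replicate number and each holds 1 array. Over the alternatives the sodium-coupled median ranged from 0.20 to 0.40 at 10 nM and from 0.19 to 0.55 at 20 nM, that of SLC25 from -0.25 to 0.08 and from -0.34 to -0.13, and that of other carriers from -0.09 to -0.01 and from -0.32 to -0.19. No difference of a named gene that was at least 2-fold in size changed direction under any alternative run for single genes. Apart from the mean over probes, these alternatives rescale or bound the same signals, so they could hardly reverse such a difference. Of 1206 recomputed gene values, 175 moved by more than the spread between probes of 1 gene. Applying the alternatives to the role lists was chosen after seeing the data. Counts past 2-fold depended on the processing, and 79 of 252 moved by over 1.5 times. The order below is all carriers, sodium-coupled, SLC25, other, naming only counts that moved. Without background correction, higher counts at 10 nM were 7 in all, 3 sodium-coupled and 3 other, and lower counts 1 in all, 0 SLC25 and 1 other; at 20 nM higher counts were 9, 3 sodium-coupled and 5 other, and lower counts 8, 0 sodium-coupled, 2 SLC25 and 6 other; between doses 0 in all and 0 other were higher, and 3 in all, 0 sodium-coupled, 0 SLC25 and 3 other lower. In the deposited intensities as they are, higher counts were 7, 3 sodium-coupled and 3 other at 10 nM and 9, 3 and 5 at 20 nM, and lower counts were 0 in all, in SLC25 and in other at 10 nM and 10 in all, 1 sodium-coupled, 2 SLC25 and 7 other at 20 nM; between doses 0 in all and 0 other were higher, and 3 in all, 0 sodium-coupled, 0 SLC25 and 3 other lower. With an offset of 50, 3 other carriers were higher and 2 in all and 1 other lower at 10 nM, and between doses 1 in all (1 other) was higher and 5 in all, 1 sodium-coupled and 3 other lower. Under median scaling, 13 in all, 2 SLC25 and 9 other were lower between doses; this scaling put the median of all named genes at -0.13 at 20 nM and -0.09 between doses. Over genes detected on both arrays, 3 sodium-coupled genes were higher at each dose, and 1 carrier, of the other class, between doses; with bounds that last count was also 1. With the mean of all detected probes, 1 sodium-coupled gene was lower at 20 nM and 1 between doses. The wider sodium-coupled list had 1 lower at 10 nM. At a 1.5-fold threshold, higher counts were 25, 8, 6 and 11 at 10 nM, 33, 9, 7 and 17 at 20 nM and 5 in all, 1 sodium-coupled and 4 other between doses; lower counts were 20, 1, 5 and 14 at 10 nM, 40 in all, 9 SLC25 and 29 other at 20 nM, and 28 in all, 4 SLC25 and 21 other between doses. For all of these, the cause was not tested. Counts over all named genes also moved and are given as higher and lower at 10 nM, at 20 nM and between doses. Without background correction they were 194 and 45, 552 and 545, and 39 and 76. In the deposited intensities as they are they were 208 and 33, 558 and 540, and 35 and 83. With an offset of 50 they were 319 and 97, 838 and 895, and 90 and 168. Having 1 array per group and signals near background limit every value for the 34 carriers below 200 on the vehicle array.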

Other observations

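Probes of the same carrier gene differed for several members, and these were chosen after their values were seen. SLC25A3 had a pair of bright probes: the brightest read 8256, 7073 and 5753 with rising dose, while the next read 5760, 6106 and 6359. On the log2 scale they stood at -0.71 and -0.02 at 20 nM, and a dim further probe at -1.23. SLC30A5, a zinc carrier gene, stood at -0.42 at 20 nM by its brightest probe (1283, 1029 and 1015) and at 0.89 and 0.87 by the others detected on all 3 arrays, of which the brighter read 472, 649 and 793.

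Other carriers stayed below 2-fold by the brightest probe and passed it by another. SLC50A1, a sugar carrier gene, stood at 0.32 at 20 nM by the brighter probe and 1.17 by the dimmer, SLC22A23 at 0.93 and 1.33, SLC25A20 at 0.74 and 1.17, and SLC25A29 at 0.66 and 1.28. Over the 28 members with several detected probes at 20 nM, the pooled SD between probes was 0.51 in log2 fold change, beside 0.44 over all named genes.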
